A study of Mus musculus with 6 samples.

Results

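The tubulin genes, the γ-tubulin complex genes *Tubgcp2* to *Tubgcp6*, the tubulin cofactor genes *Tbca* to *Tbce* and the genes of the chaperonin CCT were followed in mPASMCs, smooth muscle cells cultured from the mouse pulmonary artery, after knockdown of the lncRNA *Snhg18*. Members were found by their symbols among protein-coding genes, and 37 of the 55487 genes in the count table met the rule. They were 7 α-tubulin, 8 β-tubulin and 2 γ-tubulin genes, 5 *Tubgcp* genes, 5 cofactor genes and 10 CCT genes. The si-NC group held 3 libraries of mPASMCs given a negative control siRNA, and the si-*Snhg18* group held 3 libraries of the same cells given an siRNA against *Snhg18*. The cells of both groups were cultured in DMEM with fetal bovine serum and transfected with Lipofectamine, and the labels call them control and *Snhg18* knockdown. They came from a commercial supplier and were used at early passages. Mouse strain, age, oxygen level and time after transfection are not stated for the sequenced cells, and 1 siRNA sequence was used, so its own effects and those of losing *Snhg18* cannot be told apart. No source says that the 3 libraries of a group came from separate cultures, so p-values measure the spread between these libraries, which may be technical.

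Microtubules are hollow polymers of α/β-tubulin dimers that carry cargo, shape the cell and build the mitotic spindle. γ-tubulin, held in a ring with the Tubgcp proteins, starts new microtubules. Newly made tubulin and actin chains cannot fold alone: prefoldin passes them to CCT, a double ring of distinct subunits that uses ATP, and the cofactors TBCA to TBCE then join α- to β-tubulin. Cells also hold their tubulin pool steady by destroying tubulin mRNA during translation when free dimers are in excess. In vascular smooth muscle, microtubules act beside the actin filaments of the contractile apparatus, and they are needed for division and migration.

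Counted reads totalled 18097718 to 25988746 per library, and the members took 0.439% to 0.530% of them. Levels are given as CPM, the counted reads of a gene relative to library size after TMM scaling, and 3 reads, the smallest level taken as detectable, equalled 0.115 to 0.164 CPM. *Snhg18* (chromosome 15, 32240565 to 32244662, minus strand, GRCm38) was at 23.5, 22.4 and 22.2 CPM in si-NC libraries 1 to 3 and at 10.6, 11.2 and 9.97 CPM in si-*Snhg18* libraries 1 to 3. The groups did not overlap, and 46.7% of the control level remained (log2 fold change −1.10 ± 0.10 SE, adjusted p = 0.00727 by the quasi-likelihood test of edgeR). That call was lost without si-NC 1, si-NC 3 or si-*Snhg18* 3, with log2 fold changes of −1.06 to −1.11 and adjusted p of 0.0659 to 0.0703. The smooth muscle markers were all detected, with *Acta2* at 574 to 1041 CPM and *Tagln* at 435 to 692 CPM. *Myocd*, *Myh11* and *Des* were low, at 0.49 to 2.22, 8.27 to 22.3 and 2.06 to 19.6 CPM. Endothelial *Pecam1* and *Emcn* had at most 14 and 6 reads, and leukocyte *Ptprc*, *Cd79a* and *Cd3e* at most 8, 3 and 0. Other markers of these types had more, with endothelial *Cdh5* at 203 to 247 reads. Leukocyte *Cd53*, *Cd14* and *Csf1r* had 922 to 2748, 273 to 1244 and 73 to 216 reads, so these lists were not silent.

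Reads can be assigned to a tubulin gene only where its sequence differs from that of its relatives, so the ends of the coding sequences are shown for 2 pairs of β-tubulins. Capitals mark bases that differ within the pair, bases opposite a gap included, and each sequence runs 5′ to 3′ to the stop codon, read from the GENCODE vM21 transcripts (GRCm38). *Tubb4b* (chr2:25222308-25222367, minus strand) and *Tubb4a* (chr17:57080690-57080746, minus strand) differed in 11 of the 60 aligned positions. *Tubb2b* (chr13:34127471-34127530, minus strand) and *Tubb2a* (chr13:34074468-34074527, minus strand) differed in 3.
Tubb4b: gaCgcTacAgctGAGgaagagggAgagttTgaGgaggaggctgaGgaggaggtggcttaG
Tubb4a: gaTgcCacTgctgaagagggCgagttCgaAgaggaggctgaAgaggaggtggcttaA
Tubb2b: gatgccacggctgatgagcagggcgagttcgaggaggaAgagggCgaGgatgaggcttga
Tubb2a: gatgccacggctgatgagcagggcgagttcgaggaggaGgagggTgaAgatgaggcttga

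Over the whole coding sequence, *Tuba1a* and *Tuba1b* were 98.3% identical, *Tubb2a* and *Tubb2b* 96.5%, and *Tubb4a* and *Tubb4b* 83.2%. Among the 10 pairs of tested α-tubulins the identity ranged from 79.2% to 98.3%, and among the 21 pairs of tested β-tubulins from 80.3% to 96.5%. The CCT subunits were less alike, at 49.2% to 54.3% over 21 pairs. Of all 50-base windows along the transcript, 72.9% for *Tuba1a*, 73.8% for *Tuba1b*, 61.0% for *Tuba1c*, 49.6% for *Tubb2a* and 39.3% for *Tubb2b* also occurred in another gene. The counts of these 5 genes are therefore uncertain and are also given summed. *Tubb4b* shared 50.9% of its windows, mainly with the pseudogene *Tubb4b-ps1*, which had at most 37 reads. The handling of reads that match both is not stated, so the *Tubb4b* count is uncertain as well. For *Cct2*, *Tubb6*, *Tubb3*, *Cct5* and *Cct8* no window was shared, and for *Tubb4a* and *Tubb5* 0.184% and 0.115% were.

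The promoters of *Cct2* and *Cct6a* are shown because these CCT genes were lower after knockdown and their windows carry the letters that the tested CCT promoters had in common. *Cct5* and *Tcp1*, which were not lower, carried these letters too, and *Cct4* had no window. A link between the letters and the levels was not tested. Each window spans 250 bases before to 50 after a RefSeq transcript start on GRCm38.p6, with the matches to GGGCGG or CCAAT, on either strand, in capitals. The *Cct2* window is chr10:117063803-117064102 on the minus strand, and the *Cct6a* window is chr5:129787106-129787405 on the plus strand. Their starts lie 38 and 358 bases from the gene starts in the count table.
Cct2: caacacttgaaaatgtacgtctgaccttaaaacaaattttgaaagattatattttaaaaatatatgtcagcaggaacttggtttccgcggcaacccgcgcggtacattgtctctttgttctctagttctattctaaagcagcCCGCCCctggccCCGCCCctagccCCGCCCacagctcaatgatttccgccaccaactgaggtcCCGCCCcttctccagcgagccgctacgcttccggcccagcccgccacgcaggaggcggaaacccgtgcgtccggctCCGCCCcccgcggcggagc
Cct6a: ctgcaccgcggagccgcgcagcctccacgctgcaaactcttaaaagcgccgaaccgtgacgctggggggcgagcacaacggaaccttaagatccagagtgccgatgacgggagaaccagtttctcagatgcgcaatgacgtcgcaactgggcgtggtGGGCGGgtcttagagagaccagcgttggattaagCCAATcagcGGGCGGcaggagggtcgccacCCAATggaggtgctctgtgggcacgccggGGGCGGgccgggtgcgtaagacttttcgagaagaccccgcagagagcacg

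RefSeq windows were matched for 32 members, 27 of them tested. The matched start lay 628 bases from the gene start in the count table for *Tcp1*, 881 for *Tbcb*, 571 for *Tuba4a* and 514 for *Tubgcp4*. The windows of these genes and of *Cct6a* therefore do not reach that gene start. GGGCGG, or CCGCCC on the other strand, occurred in 7 of 7 windows of tested CCT genes (*Cct2*, *Cct3*, *Cct5*, *Cct6a*, *Cct7*, *Cct8* and *Tcp1*). It was in 7 of 11 windows of tested tubulins and in 20 of the 27 windows of tested members (74.1%), against 35.7% of all 32851 windows of this length. The *Cct2* window held 5 such matches and no CCAAT. The letters CCAAT, or ATTGG, occurred in 11 of the 27 (40.7%), against 37.4% of all windows, and the *Cct6a* window held 2 of them beside 3 GGGCGG matches. GAANNTTC was in none of the 27 windows and in 7.86% of all windows, and TATAAA, or TTTATA, was in 2 of the 27, *Tubb2a* and *Tubb4b*, and in 13.6% of all windows. No overlap between these motifs was removed, and the shares of all windows were not limited to expressed genes.

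Of the 37 members, 32 had enough reads to be tested. The other 5 were close to silent: *Tuba3a* and *Tubb1* had no read in any library, *Tuba3b* and *Cct8l1* had at most 1, and *Cct6b* had at most 8. Mouse *Tuba3* and *Cct6b* transcripts are best known from the testis, and *Tubb1* from megakaryocytes and platelets. Among the tested members, 20 were lower and 12 higher in si-*Snhg18*, with a median log2 fold change of −0.14 against 0.0072 for all 14531 tested genes. *Cct2* and *Tubb6* fell, and no member rose, at an adjusted p under 0.05. These 2 are 6.25% of the tested members, against 7.36% of all tested genes in either direction, 3.65% higher and 3.71% lower. Of the 5682 genes with a mean log2 CPM of 5 or more, 12.4% were called. Neither *Cct2* nor *Tubb6* fell by 1.5-fold, a size that 3.67% of all genes reached with an adjusted p under 0.05. At an unadjusted p under 0.05 there were 10 of the 32 tested members, against 3613 of the 14531 tested genes (24.9%).

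Same-numbered libraries of both groups deviated together, most clearly those numbered 2 (correlation of deviations 0.742 over all tested genes). Numbers 1 and 3 were not set apart as pairs, since si-NC 3 correlated more with si-*Snhg18* 1 (0.497) than with si-*Snhg18* 3 (0.359). Each member was also read from a blocked fit, which has the replicate number as an added term and takes the numbers as pairs. In that fit 12 members (37.5%) were called, against 27.2% of all genes. Of the 32 tested members, 11 were called lower and 1, *Tubgcp3*, higher, against 1972 and 1982 of the 14531 tested genes (13.6% in each direction). *Tubb4a*, *Tubb3*, *Tuba8* and *Tubgcp5* changed by at least 1.5-fold there, as 10.1% of all genes did. The members were mostly abundant, and the blocked fit called 40.3% of the 5682 genes whose mean log2 CPM was 5 or more. The groups did not overlap for 14 of the 32 tested members, 11 lower and 3 higher, against 30.9% of all genes, 15.5% lower and 15.4% higher. Among those 5682 abundant genes the groups were apart for 40.5%. The count of calls depended on single libraries. Without si-NC 1, si-NC 3 or si-*Snhg18* 3, the edgeR test called no member and no gene at all, with 8, 7 and 7 members at an unadjusted p under 0.05. Without si-NC 2 or si-*Snhg18* 1 it called *Cct2* alone, and without si-*Snhg18* 2 it called 14 members, *Tuba1c*, *Tubgcp2*, *Tubgcp3*, *Tubgcp5*, *Cct4* and *Cct6a* among them. The blocked fit called 14, 13 and 1 members without the libraries numbered 1, 2 and 3, against 4542, 3504 and 651 of all genes.

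**Figure D1:**
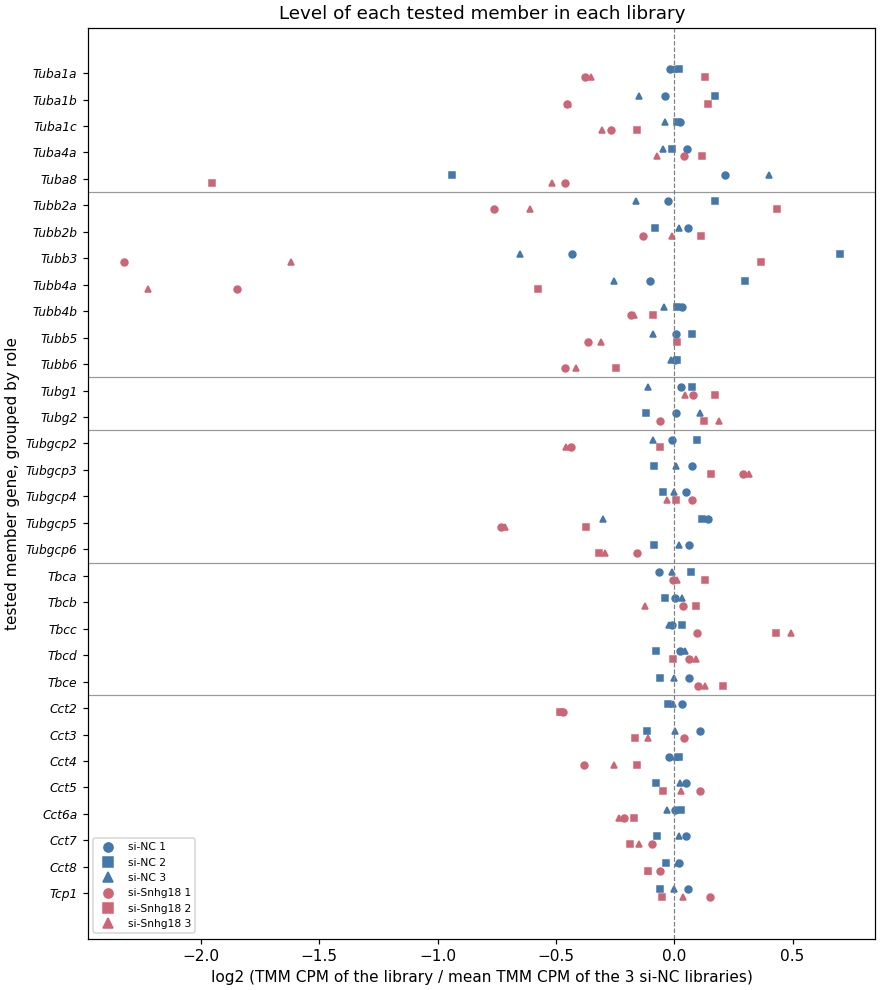
Level of each tested member in each library, as the log2 ratio of its CPM to the mean CPM of the 3 si-NC libraries (horizontal axis), with genes grouped by role (vertical axis) and libraries shown by colour and shape. The si-*Snhg18* points of *Cct2* and *Tubb6* all lie left of the si-NC points, and the libraries numbered 2 (squares) lie to the right of the others of their group for *Tubb2a*, *Tubb3* and *Tubb4a*.

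The CCT genes had the highest summed level per length of the 6 groups in si-NC, 988 ± 30.1 CPM per kb, and 1 of them, *Cct2*, fell. This rank rests on counts that are uncertain for the tubulins with shared sequence. Every level per kb here also rests on the exon length in the count table, which for *Cct2*, *Cct5* and *Tcp1* was that of a single transcript. The CCT genes summed to 2182 ± 63.2 CPM (SD, n = 3) in si-NC and 1986 ± 56.6 CPM in si-*Snhg18*, a ratio of 0.910, and the groups did not overlap. *Cct2*, which encodes the β subunit, was at 348, 333 and 339 CPM in si-NC and at 246, 244 and 244 CPM in si-*Snhg18*. All si-*Snhg18* libraries lay well below all si-NC libraries and were nearly equal to each other. The level fell to 71.8% of the control (log2 fold change −0.48 ± 0.06 SE, adjusted p = 0.0107), the smallest adjusted p among the members. Its log2 fold change was −0.49 to −0.46 when any library was left out, and the call was lost without si-NC 1, si-NC 3 or si-*Snhg18* 3, with adjusted p of 0.0853 to 0.0933. In the blocked fit, *Cct2* was called whichever number was left out. The gene lies on chromosome 10 (117051001 to 117063814, minus strand), and no annotated exon of another gene overlaps its exons.

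*Cct4*, the δ subunit, and *Cct6a*, a ζ subunit, were lower by less. *Cct4* was at 191, 197 and 195 CPM in si-NC and 149, 174 and 163 CPM in si-*Snhg18* (log2 fold change −0.26 ± 0.08 SE, adjusted p = 0.0922). *Cct6a* was at 235, 239 and 229 CPM against 202, 208 and 199 CPM (−0.21 ± 0.06, adjusted p = 0.0899). Neither gene's groups overlapped, and both were called in the blocked fit (adjusted p of 0.0176 and 0.0277) and by DESeq2 (0.0358 and 0.0156). Without number 3 the blocked fit called neither, and *Cct6a* was also lost there without number 2. *Cct7*, the η subunit, went from 249 ± 10.7 to 226 ± 7.26 CPM and *Cct8*, the θ subunit, from 293 ± 6.04 to 274 ± 5.72 CPM. Their groups were also apart, but with log2 fold changes of −0.14 and −0.09 they passed neither fit (adjusted p of 0.236 and 0.362, blocked 0.0885 and 0.228). *Cct3*, the γ subunit, had −0.08 (95% interval −0.29 to 0.14).

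*Tcp1*, the α subunit, and *Cct5*, the ε subunit, were not lower. *Tcp1* was at 367, 338 and 352 CPM in si-NC and 390, 339 and 362 CPM in si-*Snhg18*, a log2 fold change of 0.05 with a 95% interval of −0.14 to 0.23. *Cct5* had 0.03 (−0.14 to 0.20), and its groups overlapped as well. The signs of both turned without si-*Snhg18* 1, and that of *Cct5* also without si-NC 2. The order of the levels per length changed. Per kilobase of exon, *Cct2* had the highest level of the 8 tested genes in si-NC, 174 ± 3.83 CPM per kb, above *Cct5* (157 ± 7.21) and *Tcp1* (144 ± 5.85), and the 3 *Cct2* values lay above all *Cct5* values. In si-*Snhg18* it was the third, at 125 ± 0.531 CPM per kb, below *Cct5* (160 ± 8.59) and *Tcp1* (149 ± 10.5), whose values overlapped. *Cct4* was the lowest in both groups, at 78.1 ± 1.20 and 65.2 ± 5.06 CPM per kb.

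The ratio of *Cct2* to *Tcp1* per length was 1.19, 1.23 and 1.20 in si-NC and 0.785, 0.897 and 0.842 in si-*Snhg18*. It was above 1 in each si-NC library and below 1 in each si-*Snhg18* library, as was the ratio to *Cct5* (1.11 ± 0.03 against 0.780 ± 0.04). *Cct2* made up 17.6% ± 0.189 of the CCT sum per length in si-NC and 13.9% ± 0.357 in si-*Snhg18*. The share of *Tcp1* went from 14.6% ± 0.159 to 16.5% ± 0.680. Within a library such ratios do not depend on the scaling, but they show unequal change and not which gene stayed put. They do depend on the exon lengths used (1959 bases for *Cct2*, 2446 for *Tcp1* and 1853 for *Cct5*). With other lengths the side of 1 and the order of levels per kb could differ. The relative change of a ratio between the groups would not. Exons of *Tcp1* overlap those of *Acat3* on the opposite strand over 11.4% of their length, and exons of *Cct6a* overlap those of *Psph* over 12.5%. Without a stated strand setting, such reads cannot be told apart.

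**Figure D2:**
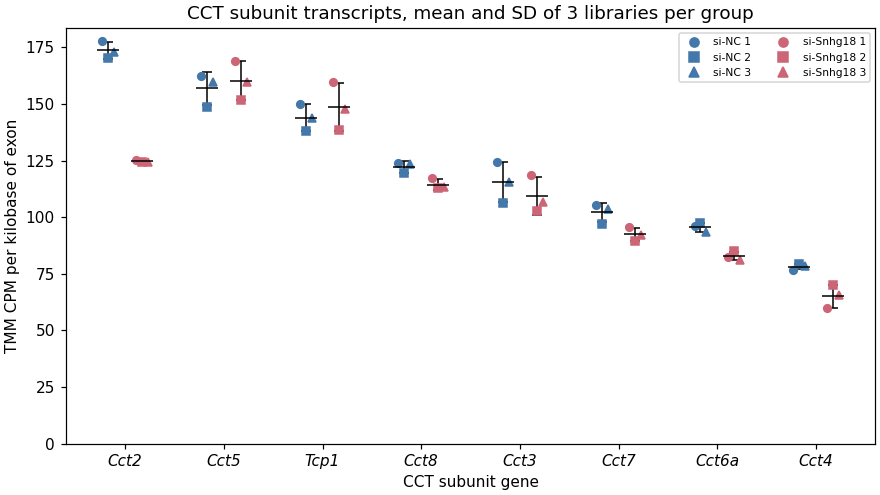
TMM CPM per kilobase of exon (vertical axis) of the 8 tested CCT genes (horizontal axis, in the order of their si-NC level), with points for libraries and bars for the mean and SD of 3 libraries. *Cct2* leads in si-NC at 174 and drops to 125 CPM per kb, whereas *Cct5* and *Tcp1* overlap between the groups.

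The β-tubulins summed to 1777 ± 78.3 CPM in si-NC and 1509 ± 196 CPM in si-*Snhg18*, with overlapping groups. All 7 tested β-tubulins had a negative log2 fold change, but that of *Tubb2b* was −0.01 and turned positive in 6 of 16 alternative settings, library totals among them. *Tubb6*, a widely expressed β-tubulin (chromosome 18, 67390717 to 67402749, plus strand), was at 389, 391 and 385 CPM in si-NC and 281, 327 and 291 CPM in si-*Snhg18*. The groups did not overlap, and the level fell to 77.2% of the control (log2 fold change −0.37 ± 0.08 SE, adjusted p = 0.0387). This call was near the threshold. It was lost with library totals in place of TMM (adjusted p = 0.0578) and without any library other than si-*Snhg18* 2, with adjusted p of 0.0973 to 0.178 and log2 fold changes of −0.38 to −0.33. The blocked adjusted p was 0.00538, and 0.0974 without the libraries numbered 3. Its share of the β-tubulin sum per length went from 26.5% ± 0.885 to 24.2% ± 1.03, and those groups did not overlap.

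*Tubb5*, the β-tubulin of most dividing cells, was the most abundant tubulin, at 361 ± 20.6 CPM per kb in si-NC. Its CPM was 960, 1008 and 899 in si-NC and 742, 962 and 771 in si-*Snhg18*. The library si-*Snhg18* 2 lay among the si-NC values, so the groups overlapped (log2 fold change −0.21 ± 0.11 SE, adjusted p = 0.305, blocked 0.0524). Without si-*Snhg18* 2 it was −0.34 (adjusted p = 0.0261). *Tubb4b*, a broadly expressed class IV β-tubulin, was at 270, 265 and 256 CPM against 233, 248 and 234 CPM, a small difference with groups apart (−0.15 ± 0.06, adjusted p = 0.211). After *Tubb5*, the levels in si-NC followed the order *Tubb6* (221 ± 1.79 CPM per kb), *Tubb4b* (165 ± 4.63), *Tubb2b* (37.8 ± 1.87), *Tubb2a* (33.5 ± 3.92), *Tubb3* (10.2 ± 5.53) and *Tubb4a* (6.33 ± 1.30). *Tubb2b* and *Tubb2a* lay within their spread, as did *Tubb3* and *Tubb4a*. Shared sequence leaves the places of *Tubb4b*, *Tubb2b* and *Tubb2a* in this order uncertain.

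The low β-tubulins, known mainly from neurons, had the widest differences. *Tubb4a* was at 13.1, 17.4 and 11.8 CPM in si-NC and 3.92, 9.46 and 3.01 CPM in si-*Snhg18*. The groups did not overlap, but si-*Snhg18* 2 was far above si-*Snhg18* 1 and 3. The log2 fold change was −1.36 ± 0.43 SE, the largest among the members, with an adjusted p of 0.116. The blocked fit called it at −1.47 (adjusted p = 0.00365) and DESeq2 at −1.36 (adjusted p = 0.0147). Without si-*Snhg18* 2 it was −2.02 (adjusted p = 0.00611). *Tubb3* was at 14.1, 30.9 and 12.1 CPM in si-NC and 3.80, 24.5 and 6.19 CPM in si-*Snhg18*. Library 2 was the highest of each group by a wide margin, and si-*Snhg18* 2 exceeded 2 of the si-NC libraries. Its log2 fold change of −0.72 ± 0.73 SE had an adjusted p of 0.581, and within pairs of the same number the level was lower in si-*Snhg18* in 3 of 3 pairs, by 1.89, 0.33 and 0.97 on the log2 scale (blocked −0.99, adjusted p = 0.0298). The value without the block rested on single libraries, at −1.95 and called without si-*Snhg18* 2 (adjusted p = 0.0344), and at −0.96 to −0.19 with no call without any other library, the smallest without si-NC 2. Blocked calls of *Tubb4a* and *Tubb3* were lost without the libraries numbered 3 (adjusted p of 0.0501 and 0.148).

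*Tubb2a* also depended on library 2, at 53.0, 60.7 and 48.2 CPM in si-NC and 31.9, 72.9 and 35.4 CPM in si-*Snhg18*. The highest and the lowest value of the gene both belonged to si-*Snhg18* libraries, and neither fit called it (log2 fold change −0.21 ± 0.32 SE, adjusted p = 0.730, blocked 0.241). Without si-*Snhg18* 2 it was −0.69 with an adjusted p of 0.0139. *Tubb2b* was at 82.4 ± 4.07 and 82.0 ± 6.93 CPM. Summed, *Tubb2a* and *Tubb2b* had a log2 fold change of −0.08 ± 0.15 SE (adjusted p = 0.778).

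The α-tubulins summed to 848 ± 30.0 CPM in si-NC and 743 ± 124 CPM in si-*Snhg18*, with overlapping groups, and 0 of 5 were called by edgeR, with 1 at an unadjusted p under 0.05 and 1, *Tuba1c*, called by DESeq2. *Tuba1a*, an α-tubulin of young neurons that many cultured cells also express, was at 335, 343 and 338 CPM in si-NC and 260, 370 and 265 CPM in si-*Snhg18*. *Tuba1b*, the common α-tubulin of proliferating cells, was at 237, 275 and 220 CPM against 178, 269 and 178 CPM. In both, si-*Snhg18* 1 and 3 were below every si-NC library and si-*Snhg18* 2 was not (log2 fold changes −0.18 ± 0.14 and −0.22 ± 0.18 SE, adjusted p of 0.475 and 0.491). Without that library the values were −0.37 and −0.45, and both were called (adjusted p of 0.0121 and 0.0282). *Tuba1c* had groups that did not overlap, at 177, 176 and 170 CPM against 145, 156 and 141 CPM (−0.24 ± 0.07, adjusted p = 0.0832, blocked 0.0199, DESeq2 0.0228). Its blocked call was lost without the libraries numbered 3 (adjusted p = 0.202). Since these 3 genes share most of their sequence, their counts were summed, which gave −0.21 ± 0.13 SE (adjusted p = 0.380, blocked 0.0760). Exons of *Gm49450* on the same strand overlap 26.2% of the *Tuba1a* and 22.7% of the *Tuba1b* exon length. The handling of reads in that overlap is not stated, and the sum does not settle it.

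*Tuba4a*, whose protein lacks the usual encoded C-terminal tyrosine, was at 80.5 ± 2.90 and 82.2 ± 5.39 CPM (log2 fold change 0.03, 95% interval −0.15 to 0.21), with 37.3% of its exon length overlapped by *Stk16* on the other strand. *Tuba8*, a divergent isotype, was at 12.1, 5.43 and 13.7 CPM in si-NC and 7.56, 2.69 and 7.29 CPM in si-*Snhg18*. Unlike the other tubulins named here for library 2, it was lowest in library 2 of each group. The level was lower in 3 of 3 same-numbered pairs. The fit without the block did not call it (−0.84 ± 0.48 SE, adjusted p = 0.337), and the blocked fit did (−0.85 ± 0.14 SE, adjusted p = 0.00550), except without number 3 (0.0903). Exons of *Gm15856* on the opposite strand overlap 16.3% of its exon length. The ratio of the summed α- to the summed β-tubulins per length was 0.538 ± 0.005 in si-NC and 0.552 ± 0.029 in si-*Snhg18*, with overlapping groups. The size of this ratio is uncertain, because *Tuba1a*, *Tuba1b* and *Tuba1c* share most windows with other genes and the handling of such reads is not stated.

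**Figure D3:**
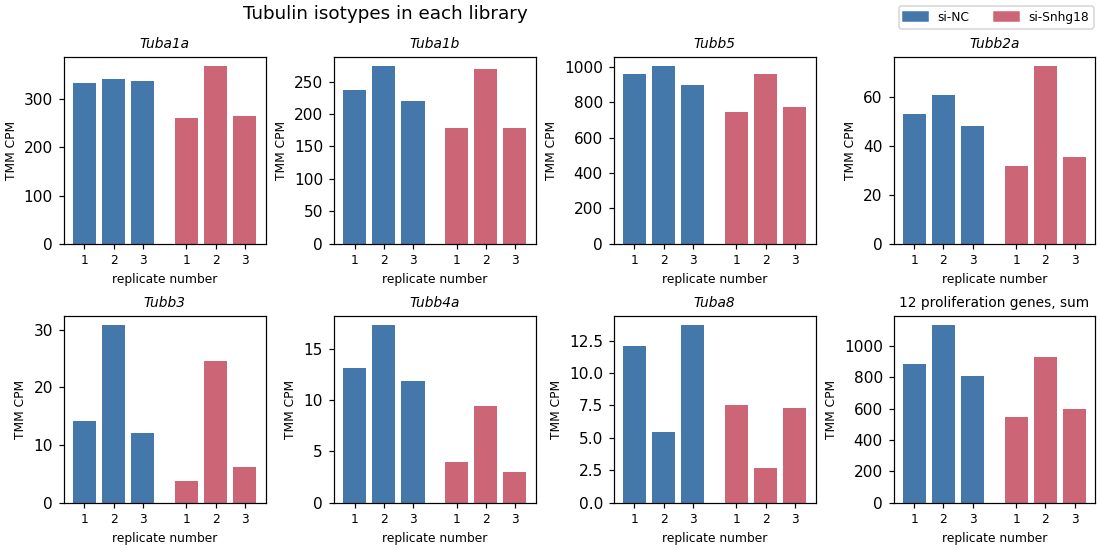
TMM CPM (vertical axes, each from 0) in each library, by replicate number (horizontal axes), for 7 tubulins and for the sum of 12 proliferation genes, with si-NC in blue and si-*Snhg18* in red. Library 2 is the highest of its group in each panel except *Tuba8*, where it is the lowest, with 5.43 and 2.69 CPM.

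Library 2 also stood apart in genes outside the members. The 12 proliferation genes, *Bub1* and *Aurka* among them, summed to 882, 1136 and 807 CPM in si-NC and 546, 930 and 599 CPM in si-*Snhg18*, so library 2 was the highest in each group, as for *Tuba1a*, *Tuba1b*, *Tubb5*, *Tubb2a*, *Tubb3* and *Tubb4a*. Their median log2 fold change was −0.56. The edgeR test called none of the 12 (5 at an unadjusted p under 0.05, 1 called by DESeq2). The blocked fit called 10, all lower, against 27.2% of all genes in either direction and 13.6% lower. *Pcna* and *Mcm2* were the other two, at 0.01 and −0.18. The part of proliferation in the tubulin levels was not tested. The *Hspa1b* transcript of the heat-shock response went the other way, at 282, 58.6 and 342 CPM in si-NC and 739, 48.1 and 388 CPM in si-*Snhg18*, so library 2 was the lowest of each group.

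Both γ-tubulins were slightly higher and passed no fit. *Tubg1*, the main form, was at 40.3, 41.7 and 36.6 CPM in si-NC and 41.7, 44.6 and 40.8 CPM in si-*Snhg18* (log2 fold change 0.10, 95% interval −0.10 to 0.30, adjusted p = 0.508). *Tubg2* was at 4.13 ± 0.326 and 4.39 ± 0.390 CPM (0.09, −0.32 to 0.49). Neither was called by DESeq2, and neither had an unadjusted p under 0.05. They are 93.3% identical in coding sequence, and their sum had a log2 fold change of 0.10 ± 0.08 SE (adjusted p = 0.479).

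The *Tubgcp* genes, which encode the proteins that hold γ-tubulin in its ring, differed in both directions, and their sum was 192 ± 6.66 CPM in si-NC and 182 ± 3.68 CPM in si-*Snhg18*. The fit without the block called 0 of 5 (3 at an unadjusted p under 0.05, *Tubgcp5* called by DESeq2). The blocked fit called 4, against 27.2% of all genes and 40.3% of those with a mean log2 CPM of 5 or more. *Tubgcp3*, a core subunit, was at 48.3, 43.2 and 46.1 CPM in si-NC and 56.1, 51.1 and 57.0 CPM in si-*Snhg18*. Every si-*Snhg18* value was above every si-NC value (log2 fold change 0.26 ± 0.08 SE, adjusted p = 0.116, blocked 0.0281). *Tubgcp2*, its partner in the core, was at 36.1, 38.9 and 34.1 CPM against 26.9, 34.9 and 26.5 CPM, with overlap through si-*Snhg18* 2 (−0.30 ± 0.13, adjusted p = 0.212, blocked 0.0362). The ratio of *Tubgcp3* to *Tubgcp2* per length was 1.08, 0.896 and 1.09 in si-NC and 1.68, 1.18 and 1.73 in si-*Snhg18*. *Tubgcp3* made up 26.1% ± 1.26 of the *Tubgcp* sum per length in si-NC and 32.7% ± 2.65 in si-*Snhg18*.

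*Tubgcp5* and *Tubgcp6* take part in the large ring. *Tubgcp5* was at 20.3, 19.9 and 14.9 CPM in si-NC and 11.0, 14.2 and 11.2 CPM in si-*Snhg18*. The groups came close, at 14.9 and 14.2 CPM, without overlap (log2 fold change −0.60 ± 0.17 SE, adjusted p = 0.0916, blocked 0.0131, DESeq2 0.0225). *Tubgcp6* was at 36.3 ± 1.88 and 30.4 ± 1.88 CPM with groups apart (−0.25 ± 0.09, adjusted p = 0.136, blocked 0.0472). *Tubgcp4* was at 54.9 ± 1.78 and 55.6 ± 2.08 CPM (0.02, 95% interval −0.15 to 0.18), and 25.4% of its exon length is overlapped by *Trp53bp1* on the other strand. Without the libraries numbered 3 the blocked fit called none of the *Tubgcp* genes, and without those numbered 2 it called *Tubgcp2* and *Tubgcp5*.

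The cofactor genes had small positive differences. All 5 had a log2 fold change above 0, that of *Tbcb* only 0.01 with the other sign in 6 of 16 alternative settings, and none was called with or without the block or by DESeq2, with 1 at an unadjusted p under 0.05. Their sum was 180 ± 2.63 CPM in si-NC and 191 ± 4.47 CPM in si-*Snhg18*, and the groups did not overlap. *Tbcc*, the cofactor that triggers GTP hydrolysis and release of the finished dimer, was at 19.7, 20.3 and 19.5 CPM against 21.2, 26.6 and 27.9 CPM. The groups were apart, although si-*Snhg18* 1 was near the controls (0.35 ± 0.12 SE, adjusted p = 0.148, blocked 0.0540). *Tbce*, which binds α-tubulin, was at 17.6 ± 0.741 and 19.5 ± 0.758 CPM with groups apart (0.14 ± 0.09, adjusted p = 0.379). *Tbca* and *Tbcd*, which bind β-tubulin, had log2 fold changes of 0.05 and 0.05 with overlapping groups, and *Tbcb*, which binds α-tubulin, was at 35.7 ± 0.888 and 35.9 ± 2.76 CPM. Exons of *Polr2i* on the opposite strand overlap 22.5% of the *Tbcb* exon length.

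**Figure D4:**
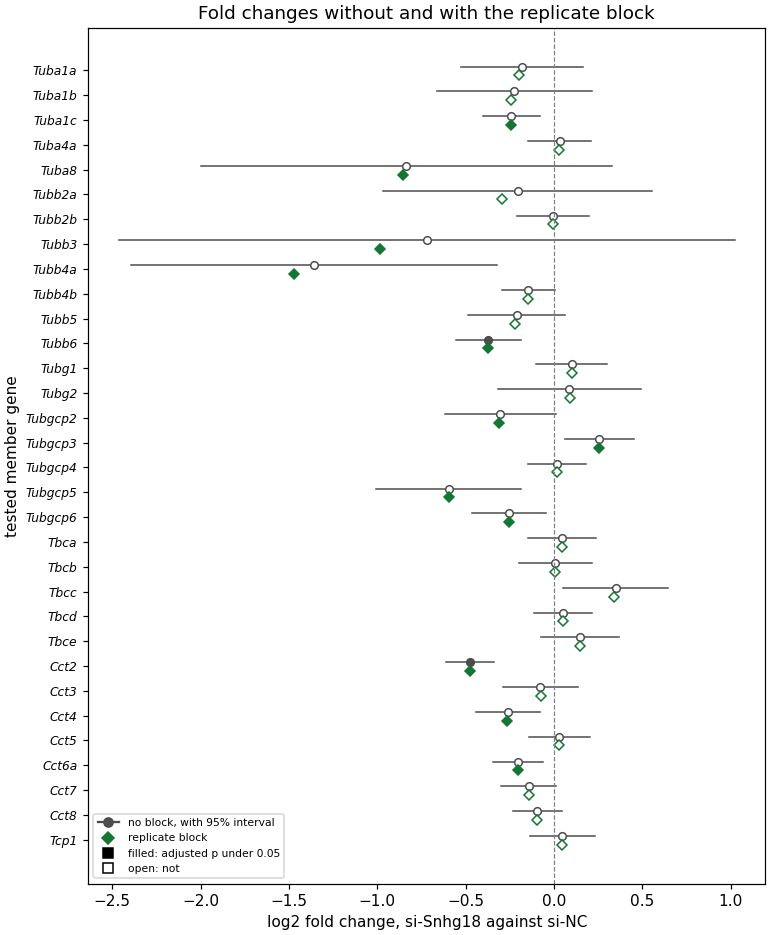
Log2 fold change of each tested member in si-*Snhg18* against si-NC (horizontal axis) without the block (circles, with the 95% interval) and from the blocked fit (diamonds), filled where the adjusted p is under 0.05. Filled circles mark *Cct2* and *Tubb6*, filled diamonds mark 12 genes, and the intervals of *Tubb3*, *Tuba8* and *Tubb4a* are the widest.

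The neighbours of these genes in tubulin folding were read from lists of known partners. Of 10 tested prefoldin and CCT co-factor genes, 2 fell and none rose (median log2 fold change 0.08). *Pdcl3*, a phosducin-like protein that works with CCT, was at 80.0, 70.5 and 83.3 CPM in si-NC and 44.4, 51.8 and 43.7 CPM in si-*Snhg18* (−0.74 ± 0.10 SE, adjusted p = 0.0149). Its relative *Pdcl*, which helps CCT release G protein β subunits, was at 33.5, 36.1 and 35.5 CPM against 22.4, 28.3 and 23.0 CPM (−0.51 ± 0.11, adjusted p = 0.0482). The groups of both were apart. *Bag3*, a co-chaperone, was at 145, 131 and 143 CPM against 226, 165 and 196 CPM (0.49 ± 0.12, adjusted p = 0.0649, blocked 0.00366). Of the prefoldin genes none was called without the block, and *Pfdn2* was higher in the blocked fit (0.27, adjusted p = 0.0227).

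The actins, the other main clients of CCT, had a median log2 fold change of −0.43 over 5 tested genes. None was called by edgeR (2 at an unadjusted p under 0.05, 1 called by DESeq2), and *Actb*, *Actg1* and *Acta1* (−1.07, adjusted p = 0.0210) were lower in the blocked fit. *Actg1* was at 1581, 1765 and 1505 CPM in si-NC and 905, 1283 and 935 CPM in si-*Snhg18*, with groups apart (−0.64 ± 0.15 SE, adjusted p = 0.0550, blocked 0.00151). *Actb* was at 2944, 3177 and 2717 CPM against 1886, 2704 and 1976 CPM (−0.43 ± 0.15, adjusted p = 0.143, blocked 0.00732). In both genes library 2 was the highest of each group. Of 10 tested heat-shock genes, 2 fell, *Hspb1* (−0.50 ± 0.09, adjusted p = 0.0265) and *Hspd1* (−0.58 ± 0.12, adjusted p = 0.0368), and none rose, and the blocked fit also called *Hspe1*, the partner of *Hspd1* (−0.19, adjusted p = 0.0497). *Hspd1* encodes the mitochondrial chaperonin, a distant relative of CCT.

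Among 19 tested microtubule-associated and dynamics genes, 2 rose and 1 fell (median 0.10). *Map1a*, a microtubule-associated protein, was at 237, 249 and 244 CPM in si-NC and 110, 164 and 125 CPM in si-*Snhg18* (−0.87 ± 0.15 SE, adjusted p = 0.0240). *Clip1*, which tracks growing ends, went from 84.6 to 116 CPM on average (0.45 ± 0.06, adjusted p = 0.0137), and *Mark2*, a kinase that detaches such proteins from microtubules, from 57.3 to 79.0 CPM (0.47 ± 0.06, adjusted p = 0.0144). *Kif5b*, a kinesin motor that carries cargo, was at 326, 307 and 336 CPM against 269, 268 and 263 CPM, with groups apart (−0.28 ± 0.06, adjusted p = 0.0517, blocked 0.0130). The blocked fit called 4 higher and 4 lower, adding *Map4* (adjusted p = 0.0327) and *Mapre3* (0.00905) among the higher, and *Kif5b*, *Ckap5* (0.00734) and *Kif2c* (0.00911) among the lower. Of 15 tested modifying and mRNA-decay genes none was called (6 at an unadjusted p under 0.05, 4 called by DESeq2), and 5 rose in the blocked fit, the deacetylase *Sirt2* among them (0.31 ± 0.07, adjusted p = 0.0523, blocked 0.0118). The others were *Ttll11*, a glutamylase (0.80 ± 0.19, adjusted p = 0.0587, blocked 0.0165), *Agbl5*, a deglutamylase (0.57 ± 0.15, adjusted p = 0.0749, blocked 0.0461), *Ttll5* (blocked 0.0460) and *Vash2* (blocked 0.0155). *Ttc5*, which marks tubulin mRNA for decay, was at 19.1, 20.0 and 18.7 CPM against 15.6, 15.8 and 15.9 CPM, with groups apart and no call in either fit (−0.29 ± 0.09, adjusted p = 0.108, blocked 0.0605). Of 10 tested ring partners and other tubulins none was called (3 at an unadjusted p under 0.05, 3 called by DESeq2), and in the blocked fit *Mzt1*, a small ring protein, rose (adjusted p = 0.0141) and *Nme7* (0.0210) and *Haus6* (0.00699) fell. Together the 7 lists had 7 calls among 81 tested genes without the block (8.64%, against 7.36% of all genes) and 36 with it (44.4%, against 27.2%). Among the 5682 genes with a mean log2 CPM of 5 or more, these shares were 12.4% and 40.3%. The blocked count of the lists was 5 without the libraries numbered 3.

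Markers of other cell types, whose tubulin isotypes could enter these values, were read in the same libraries. Over 6 neuronal markers the sums were 3.54, 4.08 and 3.77 CPM in si-NC and 5.78, 10.5 and 5.81 CPM in si-*Snhg18*. They came mostly from *Map2* (3.01 to 3.63 and 4.87 to 8.84 CPM), and *Rbfox3* had at most 0.0432 CPM. Library 2 had the highest neuronal sum of each group, as it had the highest *Tubb3* and *Tubb4a*, whereas between the groups the sums were higher in si-*Snhg18* and the means of *Tubb3* and *Tubb4a* were lower. Over 5 male germ cell markers the sums were at most 0.346 CPM, with 4 of them at 0, and over 5 ciliated cell markers 1.31 to 3.11 CPM, with *Dnah5* and *Dynlrb2* at 0. The 6 endothelial markers summed to 12.5 to 14.05 and 13.4 to 15.4 CPM. The 6 epithelial markers summed to 7.24 to 22.7 and 1.19 to 7.42 CPM, nearly all from *Krt18*, with *Sftpc* and *Scgb1a1* at 0. The 6 leukocyte markers summed to 111 to 154 and 69.2 to 109 CPM, mostly from *Cd53*, which fell (log2 fold change −1.10, adjusted p = 0.00727), with *Cd3e* at 0. The 5 fibroblast markers summed to 514 to 584 and 375 to 507 CPM, mostly from *Pdgfra*, with *Lum* and *Col14a1* at most 2.00 and 6.07 CPM. The 8 smooth muscle markers summed to 1750 to 1896 and 1202 to 1851 CPM, with *Tagln* lower (−0.51, adjusted p = 0.0427). Among all these markers the blocked fit also called *Des*, *Cnn1*, *Myh11*, *Krt18*, *Tek* and *Pdgfra* lower (adjusted p of 0.00154, 0.0113, 0.0207, 0.00216, 0.0341 and 0.0112) and *Cd14* and *Map2* higher (0.00369 and 0.0172). Their part in the tubulin and CCT values was not tested, and fewer cells of a type cannot be told apart from less RNA per cell in such libraries.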

How the data were processed

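RNA of 3 si-NC and 3 si-*Snhg18* libraries of mPASMCs was sequenced from stranded mRNA libraries (TruSeq). The authors deposited raw counts (whole numbers, not normalized) for each gene with exon lengths and positions on GRCm38. The submitters' processing notes name HISAT2 and mm10; the counting program, strand setting and filters are not given in the sources used here. No count column belonged to another sample.

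The quasi-likelihood test of edgeR 4.0.16 (glmQLFit, glmQLFTest; R 4.3.3) was run on the counts after filterByExpr with a minimum count of 10 and TMM scaling. P-values of the 14531 genes kept were adjusted by Benjamini-Hochberg, with a threshold of 0.05. The methods state no test for these data, so this fit was the main one. The scripts were tested on simulated data, which had less spread between libraries than the main fit estimated for these counts. That test does not give the error rate of the main fit here. For 3 against 3 libraries, the smallest two-sided p of an exact permutation test is 0.1. The detection floor of 3 reads covers counting error alone, as there were no molecular identifiers.

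The pairing of libraries comes from the replicate numbers in the labels. Deviations from the group means of same-numbered libraries correlated at 0.410, 0.742 and 0.359 over all tested genes, so the numbers were taken to pair the libraries, and the blocked fit is given where it changes a call. Numbers 1 and 3 also correlated across groups, si-NC 3 with si-*Snhg18* 1 at 0.497 and si-NC 1 with si-*Snhg18* 3 at 0.186. The first value exceeds the same-numbered 0.410 and 0.359, so the correlations do not identify pairs 1 and 3.

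Members and gene lists were chosen with earlier results of these data known. The genes named are all members, *Snhg18*, and in each partner list those called and up to 4 with the smallest p. Cell type genes come from marker lists, and *Hspa1b*, *Pfdn2*, *Pcna*, *Mcm2* and the other partner genes called only in the blocked fit were named after their values were seen. Alternatives were RLE factors, library totals, DESeq2 1.42.0, limma-voom (limma 3.58.1), filters on low counts, the block, summed copies, and leaving out libraries. Transcripts and exon overlaps came from GENCODE vM21 and promoters from RefSeq (Biopython 1.88). A coding transcript was found for 36 of 37 members, all except *Cct6a*. Amino acid sequences are not used here. The coding ends of the α-tubulins are not reported here.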

Additional observations from a re-analysis of the deposited data

How the results depend on the processing

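No direction turned for any member past the threshold, and the summed levels of the 6 groups kept their direction under RLE factors, library totals, lengths and each left-out library. Over all member results, 452 alternatives kept the side of the threshold, 10 lost a call and 50 gained one. Signs turned for members near 0, most often *Tubb2b* and *Tbcb* (6 of 16 settings each).

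The number of members called (2, both lower) was 1 with library totals and 7 with DESeq2, all lower, and 0 to 14 when 1 library was left out (0 to 13 lower, 0 to 1 higher). With the replicate block it was 12 (11 lower, 1 higher). With the block and without numbers 1, 2 and 3 it was 14, 13 and 1 (12, 13 and 1 lower, and 2 higher without number 1). Calls in the partner lists (7) were 19 with DESeq2, 12 with a minimum count of 50, 0 to 32 without 1 library, 36 with the block, and 39, 33 and 5 with the block without numbers 1, 2 and 3. Calls over all genes (1069) were 2115 with DESeq2, 0 to 3282 without 1 library, 3954 with the block, and 4542, 3504 and 651 with the block without numbers 1, 2 and 3. *Snhg18* lost its call without si-NC 1, si-NC 3 or si-*Snhg18* 3, and its log2 fold change was −1.14 to −1.06 over the 6 left-out libraries. The cause of these shifts was not tested, except that a left-out library also leaves fewer samples. Beyond the 10 members named with blocked calls, the block changed no call of a member. A fit without 1 library assumes equal spread in both groups. Depth left *Tuba3a*, *Tuba3b*, *Tubb1*, *Cct6b* and *Cct8l1* untested.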
